A study of Mus musculus with 6 samples.

Results

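The genes described here are the transcription factor gene Nfe2l2, which encodes NRF2, and 9 genes of redox and carbonyl metabolism that are known as NRF2 targets or as their relatives: Gclc, Gclm, Srxn1, Txnrd1, Nqo1, Cbr1, Cbr3, Hmox1 and Osgin1. They were followed through all probe sets (groups of short probes that read one transcript) for which the array's annotation names exactly 1 of these genes. There were 16 such probe sets for the 10 genes, out of 22626 probe sets that are no controls and 12393 genes named by a probe set of their own. No probe set named one of these genes together with another gene. The samples were livers of 3 wild-type mice and 3 PiZ mice, all 6 weeks old and kept on a C57BL/6 background. PiZ mice carry a transgene for the Z form of human alpha-1 antitrypsin, a secreted protease inhibitor that misfolds and accumulates in the endoplasmic reticulum of hepatocytes. The promoter of the transgene, the number of founder lines and the sex of the mice are not named by the labels. Each mouse gave 1 one-colour Affymetrix array, and values are log2 intensities after RMA (background correction, quantile normalization and summary of the probes).

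NRF2 is held in the cytosol by KEAP1, which hands it to a CUL3 ubiquitin ligase for degradation. Oxidants and electrophiles block KEAP1, and NRF2 then enters the nucleus, pairs with small MAF proteins and binds antioxidant response elements, where BACH1 can act as a competing repressor. Its targets make glutathione, recharge thioredoxin and peroxiredoxins, reduce quinones and carbonyls, and break down heme. In liver this programme handles drugs and reactive by-products, and Nqo1 is a target commonly used to read it.

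The carbonyl and quinone reductases and sulfiredoxin rose in PiZ liver, while most of the other genes did not pass the test. Of the 10 genes, 4 were higher (Cbr3, Srxn1, Nqo1 and Cbr1), 1 was lower (Gclm) and 5 were not called (Nfe2l2, Gclc, Txnrd1, Hmox1 and Osgin1), each read by its brightest probe set. Over all genes, 9.99% were called higher and 11.2% lower. Of the 16 probe sets, 7 were higher and 1 was lower, where 8.93% and 10.2% of all probe sets were. Of these 7, 4 belong to Srxn1, so probe sets are not separate observations. All 7 were called and at least 2-fold higher, which holds for 2.17% of all probe sets. The median difference over the 10 genes was 0.02 on the log2 scale, beside 0.08 over all 12393 genes. The genes were chosen with earlier results of these data known, so these counts are only descriptive. A call is an adjusted p below 0.05 from limma (a linear model with variances shared across probe sets), with Benjamini-Hochberg adjustment over all 22626 probe sets, two-sided, and n = 3 mice per group throughout. Where counts at an unadjusted p below 0.05 are given, the share over all genes or probe sets at that threshold was not counted. Differences subtract the wild-type mean from the PiZ mean of log2 intensities and carry standard errors (SE). Intensities of different probe sets cannot be set against each other, since each has its own probes.

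**Figure D1:**
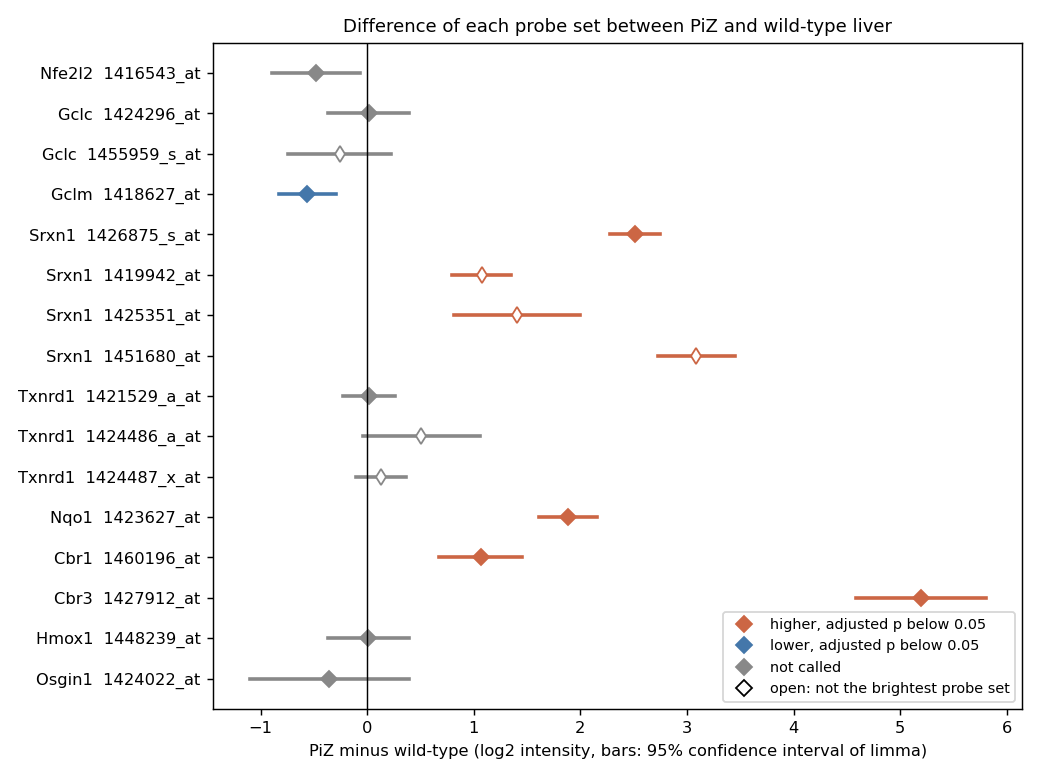
Difference between PiZ and wild-type liver (x axis, log2 intensity) for each of the 16 probe sets (y axis), with 95% confidence intervals from limma. The 7 probe sets called higher are those of Srxn1, Nqo1, Cbr1 and Cbr3, Gclm alone was called lower, and Cbr3 lies farthest from 0 at 5.19.

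PiZ replicate 1 differed in its control probe sets from the other PiZ arrays, so its values are given separately. Control probe sets read both ends of Gapdh and beta-actin, and the mean gap between their 3′ and 5′ ends, which is large when RNA is shortened, was 2.20 to 2.70 in wild-type. It was 2.50 for PiZ replicate 1, against 4.64 and 4.33 for the other PiZ arrays. Added hybridization controls averaged 11.26 to 11.46 in wild-type and 11.54 in PiZ replicate 1, against 12.38 and 12.28 in PiZ replicates 2 and 3. Array weights, the trust limma gives each array, were 1.64 to 1.83 in wild-type. They were 0.18, 0.55 and 1.86 in PiZ replicates 1, 2 and 3. Whether the arrays differ in RNA quality or in processing was not tested. The lower quartile of all probe sets was 4.27 to 4.32 in wild-type and 4.35 to 4.46 in PiZ, and there are no detection calls, so changes near or below these values are uncertain in size. Markers of liver cell types were read by their brightest probe sets. The counts that follow stand beside 9.99% of all genes called higher and 11.2% called lower. All 8 hepatocyte markers were measured, with Tat higher and Apob and Fga lower. Their summed linear intensity was 153516 to 155881 in wild-type and 125131 to 144808 in PiZ. Of 10 macrophage markers 3 were higher (Clec4f, Marco and Cd5l), with sums of 8432 to 8870 and 9730 to 11461, and C1qb, at -0.06, had its other 2 probe sets called higher (up to 0.54). Of 5 neutrophil markers 2 were higher (S100a8 and S100a9), with sums of 164 to 220 and 540 to 753. The granule genes Elane and Mpo differed by 0.07 and 0.04, but Mpo lay below the lower quartile on every array. Of 5 erythroid markers Klf1 was lower. No lymphocyte, endothelial, stellate or cholangiocyte marker was called by limma in its brightest probe set. At an unadjusted p below 0.05 the counts were 1, 1, 0 and 1, and the share over all genes at that threshold was not counted. The endothelial markers Lyve1 (-0.05) and Clec4g (-0.24) each had a dimmer probe set called higher, at 0.67 and 0.56. The part of these cell types in the results below was not tested, and in whole liver a change in the number of cells of a type cannot be told apart from a change of RNA per cell.

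Cbr3, carbonyl reductase 3, a cytosolic NADPH-dependent reductase of quinones and other carbonyls, had the largest difference of the 16 probe sets. Its log2 intensity was 5.10, 5.25 and 5.06 in wild-type and 10.91, 10.28 and 9.79 in PiZ replicates 1, 2 and 3. The wild-type arrays lay close together at the dim end of the range, and every PiZ array was far above them. The difference was 5.19 (SE 0.26, limma adjusted p = 9.94e-05), or 36.6-fold with a 95% confidence interval of 24.1 to 55.8, and ranked 4 by size among all 22626 probe sets. Because the wild-type level is dim, this fold is uncertain in size. The PiZ arrays also varied more (SD 0.56) than the wild-type arrays (SD 0.10), with PiZ replicate 1 at 0.88 above the mean of the other two.

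Cbr1, carbonyl reductase 1, the closely related enzyme that reduces a wide range of quinones, aldehydes and prostaglandins, rose by a smaller amount. Its log2 intensity was 9.76, 9.79 and 9.96 in wild-type and 11.26, 10.74 and 10.72 in PiZ replicates 1, 2 and 3. The groups did not overlap, and PiZ replicate 1 was again the highest array. The difference was 1.07 (SE 0.17, limma adjusted p = 0.00745), a 2.10-fold rise with a 95% confidence interval of 1.60 to 2.74. Leaving out PiZ replicate 1 gave 0.89.

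Nqo1, NAD(P)H quinone dehydrogenase 1, which reduces quinones by a pair of electrons at once and so avoids radical intermediates, rose with little spread in either group. It read 6.60, 6.54 and 6.67 in wild-type and 8.47, 8.63 and 8.36 in PiZ. No PiZ array was near the wild-type arrays, and PiZ replicate 1 lay between the other two. The difference was 1.88 (SE 0.12, limma adjusted p = 0.000255), a 3.69-fold rise with an interval of 3.06 to 4.44.

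Srxn1, sulfiredoxin, which repairs peroxiredoxins that peroxide has over-oxidized, rose in all 4 of its probe sets. The brightest (1426875_s_at) read 8.05, 8.14 and 8.07 in wild-type and 10.61, 10.66 and 10.53 in PiZ, and rose by 2.51 (SE 0.10, limma adjusted p = 3.61e-05). The suffix _s_at marks probes that can match more than 1 transcript. Probe set 1451680_at read 6.50, 6.11 and 6.44 in wild-type and 9.25, 9.64 and 9.42 in PiZ, and rose by 3.09 (SE 0.15). The other 2 were dimmer. Probe set 1419942_at differed by 1.07 (SE 0.12) and 1425351_at by 1.41 (SE 0.25). In each of the 4 the groups did not overlap, which holds for 23.4% of all probe sets in that direction. The sizes ran from 1.07 to 3.09, so the direction was shared and the size depended on the probe set. The dimmest, 1425351_at, with 4.69, 4.19 and 4.51 in wild-type, lost its call without wild-type replicate 2 (adjusted p = 0.0518) or without wild-type replicate 3 (adjusted p = 0.0524).

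Txnrd1, thioredoxin reductase 1, the selenoenzyme that returns cytosolic thioredoxin to its reduced form, was not called in any of its 3 probe sets. The brightest (1421529_a_at) read 9.78, 9.74 and 9.90 in wild-type and 9.90, 9.80 and 9.78 in PiZ. These 6 values overlapped, and the difference of 0.02 (SE 0.11) had a 95% confidence interval of -0.23 to 0.27, or 0.854 to 1.20 in fold. Probe set 1424486_a_at, which is dim, read 4.98, 5.08 and 4.92 in wild-type and 4.92, 5.75 and 5.83 in PiZ. PiZ replicates 2 and 3, the arrays with the large 3′ to 5′ gap, were above wild-type and PiZ replicate 1 was not. It differed by 0.51 (SE 0.24, adjusted p = 0.16), was called without PiZ replicate 1 (0.80, adjusted p = 0.000656), and read -0.09 with the 3′ to 5′ gap as a covariate. The third, 1424487_x_at, lay below the lower quartile on every array and differed by 0.13 (SE 0.10).

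Gclm and Gclc encode the modifier and catalytic subunits of glutamate-cysteine ligase, the rate-limiting enzyme of glutathione synthesis. Gclm read 11.31, 11.15 and 11.38 in wild-type and 10.81, 10.63 and 10.71 in PiZ. All PiZ arrays were below all wild-type arrays, opposite to the direction of Nqo1 and Srxn1. The difference was -0.56 (SE 0.11, limma adjusted p = 0.0169), 1.47-fold lower. This call was lost without wild-type replicate 1 (adjusted p = 0.083), wild-type replicate 3 (0.0851) or PiZ replicate 3 (0.0567), in PiZ replicate 1 alone (0.0632), and with the 3′ to 5′ gap as a covariate (-0.43, adjusted p = 0.0749). Gclc read 12.00, 11.65 and 11.44 in wild-type and 11.75, 11.82 and 11.56 in PiZ in its brightest probe set, and the groups overlapped. The difference was 0.02 (SE 0.16), with an interval of -0.36 to 0.40. Its other probe set, 1455959_s_at, read -0.26 (SE 0.21, adjusted p = 0.387), so neither probe set of Gclc was called.

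Hmox1, heme oxygenase 1, which opens the heme ring to biliverdin and is also a marker of macrophages that clear red cells, was not called. It read 6.40, 6.35 and 6.64 in wild-type and 6.77, 6.24 and 6.41 in PiZ. The lowest and the highest of the 6 arrays were both PiZ arrays. The difference was 0.01 (SE 0.16, adjusted p = 0.964), with an interval of -0.37 to 0.39, and turned to -0.14 without PiZ replicate 1. It read 0.35 with the 3′ to 5′ gap as a covariate (adjusted p = 0.176) and 0.31 in PiZ replicate 1 alone (0.215).

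Osgin1, oxidative stress induced growth inhibitor 1, varied within both groups. It read 11.17, 10.34 and 10.35 in wild-type and 9.64, 10.53 and 10.62 in PiZ. Wild-type replicate 1 was 0.82 above the next wild-type array and PiZ replicate 1 was 0.89 below the next PiZ array, while the other 4 arrays lay close together. The difference of -0.35 (SE 0.32, adjusted p = 0.444) had an interval of -1.10 to 0.39, the widest of the 16 probe sets. It ran from -0.04 without PiZ replicate 1 and -0.08 without wild-type replicate 1 to -0.89 with the 3′ to 5′ gap as a covariate (adjusted p = 0.165) and -0.98 in PiZ replicate 1 alone (0.0956), with no call under any alternative.

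Nfe2l2 itself was not called. It read 9.70, 9.72 and 10.12 in wild-type and 9.67, 9.25 and 9.19 in PiZ replicates 1, 2 and 3. All PiZ arrays were lower than all wild-type arrays, as for 18.6% of all probe sets, but PiZ replicate 1 was only just below. The difference was -0.48 (SE 0.18, limma adjusted p = 0.095), with an unadjusted interval of -0.89 to -0.06. Without PiZ replicate 1 it was -0.63 and passed (adjusted p = 0.00979), and with the 3′ to 5′ gap as a covariate it was -0.16. NRF2 is controlled mainly through the stability of the protein, which an array does not read.

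**Figure D2:**
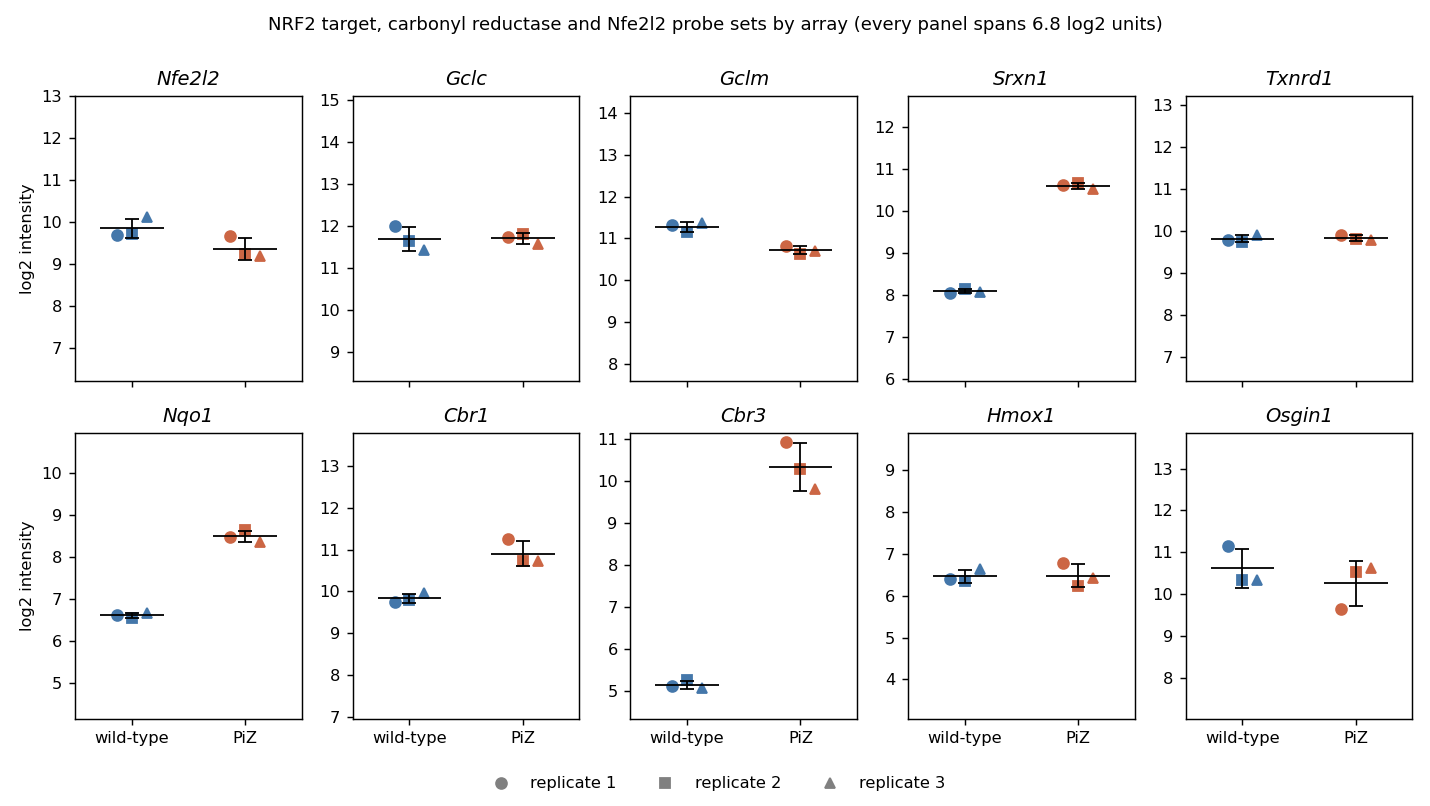
Log2 intensity (y axis) of the brightest probe set of each gene on the 3 wild-type and 3 PiZ arrays (x axis), with 1 point per mouse, the mean as a line and the SD as a bar; each panel spans the same number of log2 units. Srxn1, Nqo1, Cbr1 and Cbr3 separate upward and Gclm separates downward. Nfe2l2, which was not called, separates downward by a narrow margin, and the points of Gclc, Txnrd1, Hmox1 and Osgin1 overlap.

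The 4 genes that rose did so on each PiZ array. In PiZ replicate 1, whose 3′ to 5′ gap was within the wild-type range, the distance from the wild-type mean was 5.78 for Cbr3, 2.53 for Srxn1, 1.86 for Nqo1 and 1.42 for Cbr1. Set alone against the 3 wild-type arrays, under the assumption that it varies like them, PiZ replicate 1 gave 7 probe sets higher and 0 lower, where 7.12% and 8.13% of all probe sets were; at an unadjusted p below 0.05, 2 were lower. Among the PiZ arrays, replicate 1 was the highest for Cbr3, Cbr1, Hmox1, Nfe2l2, Gclm and Txnrd1 and the lowest for Osgin1. Srxn1 and Nqo1 differed between PiZ replicate 1 and the mean of the other two by 0.02 and -0.03. Over the brightest probe sets of the 10 genes the median distance was 0.20, 0.06 and -0.01 in PiZ replicates 1, 2 and 3, beside 0.01, 0.10 and 0.09 over all genes.

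**Figure D3:**
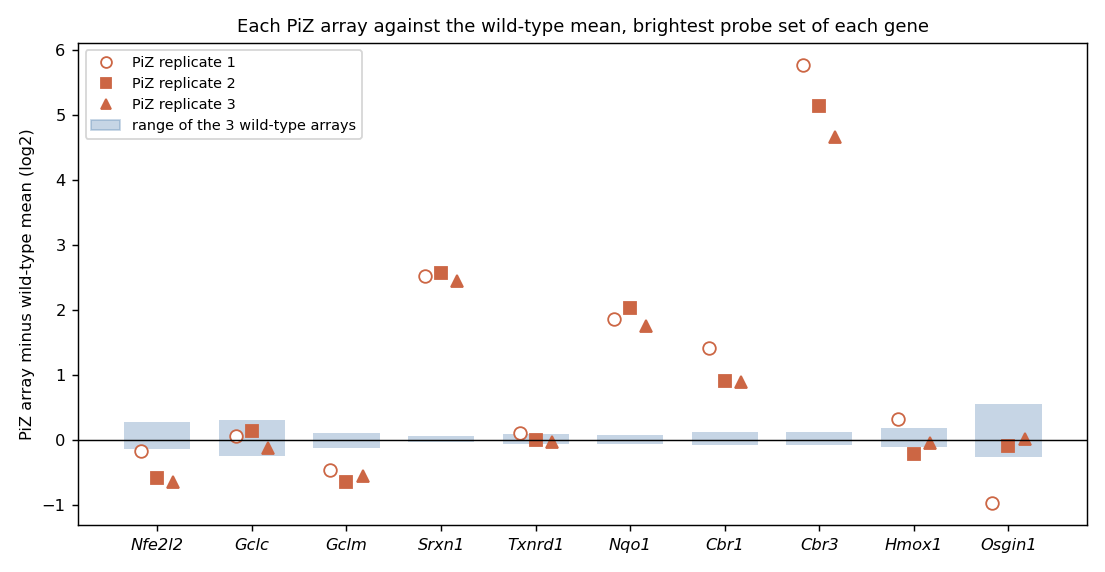
Distance of each PiZ array from the wild-type mean (y axis, log2 intensity) for the brightest probe set of each gene (x axis), with the range of the 3 wild-type arrays as a shaded band. PiZ replicate 1 (open circles) lies at 5.78 for Cbr3 and at 2.53 for Srxn1, and it is the array that sets the spread of Osgin1 in PiZ.

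The sequences just upstream of the 5 called genes are shown because NRF2 acts through a short element in DNA and members that move together can be compared for it. They run from 250 bases before to 50 bases after the start of the RefSeq gene model (GRCm38.p6), 5′ to 3′ on the strand of the gene. Capitals mark matches, on either strand, to TGACNNNGC (a core of the antioxidant response element), TGANTCA (the AP-1 type, which can overlap it), TGATGNAA (the type bound by ATF4 with a C/EBP partner) or TGANNNNGC (a looser core that holds every match of the first). The windows are chr2:152105274-152105573 (plus strand) for Srxn1, chr8:107403156-107403455 (minus strand) for Nqo1, chr16:93607587-93607886 (plus strand) for Cbr1, chr16:93682969-93683268 (plus strand) for Cbr3 and chr3:122245307-122245606 (plus strand) for Gclm.
Srxn1: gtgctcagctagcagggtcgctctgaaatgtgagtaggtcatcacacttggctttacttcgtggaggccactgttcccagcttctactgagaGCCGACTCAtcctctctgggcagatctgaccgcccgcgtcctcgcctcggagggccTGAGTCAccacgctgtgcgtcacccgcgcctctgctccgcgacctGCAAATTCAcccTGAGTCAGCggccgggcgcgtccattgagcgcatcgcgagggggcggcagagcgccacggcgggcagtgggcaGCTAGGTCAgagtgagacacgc
Nqo1: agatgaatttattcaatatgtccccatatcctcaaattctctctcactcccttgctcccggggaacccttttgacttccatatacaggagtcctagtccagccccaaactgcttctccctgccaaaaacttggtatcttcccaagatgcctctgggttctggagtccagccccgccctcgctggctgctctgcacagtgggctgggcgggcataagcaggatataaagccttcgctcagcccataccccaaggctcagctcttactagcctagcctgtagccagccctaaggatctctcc
Cbr1: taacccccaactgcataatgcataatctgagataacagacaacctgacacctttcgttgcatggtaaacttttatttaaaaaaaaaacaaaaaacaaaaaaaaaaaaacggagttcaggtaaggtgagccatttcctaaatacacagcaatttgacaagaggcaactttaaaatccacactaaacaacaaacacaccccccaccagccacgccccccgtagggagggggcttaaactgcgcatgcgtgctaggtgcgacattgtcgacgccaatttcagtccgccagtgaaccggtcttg
Cbr3: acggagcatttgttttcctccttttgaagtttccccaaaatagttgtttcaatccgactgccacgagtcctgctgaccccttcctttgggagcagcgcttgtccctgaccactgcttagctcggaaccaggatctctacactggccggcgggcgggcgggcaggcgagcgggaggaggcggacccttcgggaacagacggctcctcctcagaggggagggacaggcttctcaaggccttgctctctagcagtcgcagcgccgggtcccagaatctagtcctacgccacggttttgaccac
Gclm: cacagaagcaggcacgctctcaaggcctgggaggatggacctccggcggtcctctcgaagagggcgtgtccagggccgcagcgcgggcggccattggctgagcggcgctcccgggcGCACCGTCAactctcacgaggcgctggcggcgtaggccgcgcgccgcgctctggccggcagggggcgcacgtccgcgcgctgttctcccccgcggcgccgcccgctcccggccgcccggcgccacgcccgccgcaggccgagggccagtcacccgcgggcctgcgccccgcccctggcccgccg
Srxn1 held the most matches. Positions give the leftmost base, with the start of the gene as 0. It had TGAGTCA at -102 and TGAGTCAGC at -45, the latter a match to both the AP-1 type and the looser core, and a match to the strict core on the minus strand at 28. Gclm held 1 match to the strict core, TGACGGTGC on the minus strand, and Nqo1, Cbr1 and Cbr3 held none of the 4 motifs in these windows. Windows were in the table for 8 of the 10 genes, all but Gclc and Hmox1, with several for Txnrd1. Among the genes not called, Osgin1 held TGAGTCAGC on the minus strand, with the overlapping TGACTCA on the other, and Nfe2l2 held TGACTCCGC. Of the Txnrd1 windows, 1 held the strict core as TGACAAAGC and another the looser core as TGAAACCGC, both on the minus strand. Both called genes and genes that were not called thus hold such letters. Of all 32851 promoters of this length, 12.4% held TGACNNNGC, 7.81% TGANTCA, 3.97% TGATGNAA and 41.3% TGANNNNGC. Among the 10 windows of these genes the numbers were 4, 2, 0 and 6. A match is a run of letters and not a measured site, and a window without one says nothing of elements farther away.

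Cbr1 and Cbr3 are neighbours on chromosome 16, with starts 75.4 kb apart and no other protein-coding gene between them in RefSeq. The nearest measured genes on each side were looked at after the values of both were known. Setd4, on the Cbr1 side, was not called in its 3 probe sets (0.07 to 0.31). Dop1b, on the Cbr3 side, rose by 1.41 (SE 0.33, limma adjusted p = 0.0262) in its brighter probe set and differed by 0.25 (adjusted p = 0.413) in the other. The neighbours beyond them, Runx1 and Morc3, had no called probe set.

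Several genes that control NRF2 rose. Of 11 measured regulators, each read by its brightest probe set as in the lists that follow, 6 were higher and 1, the ligase gene Cul3, was lower, where 9.99% and 11.2% of all genes were. Their median was 0.61, beside 0.08 over all genes. This list and those that follow were chosen with earlier results of these data known, so their counts and medians are only descriptive. Mafk, a small MAF partner of NRF2, read 7.63, 7.88 and 7.73 in wild-type and 8.86, 9.06 and 8.88 in PiZ, and rose by 1.19 (SE 0.12, limma adjusted p = 0.00183). Maff, another small MAF gene, read 6.77, 6.65 and 6.92 and then 8.60, 8.51 and 7.45, a rise of 1.41 (SE 0.29, adjusted p = 0.0179). PiZ replicate 3 was well below the other PiZ arrays for Maff but above all wild-type arrays. The Maff call was lost without any 1 wild-type array (adjusted p = 0.0734, 0.0717 and 0.0642 without replicates 1, 2 and 3) and without PiZ replicate 2 (0.0604).

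Sqstm1 (p62), the autophagy receptor that can bind KEAP1 and is itself an NRF2 target, read 10.08, 9.93 and 9.98 in wild-type and 11.45, 10.80 and 11.15 in PiZ. It rose by 1.14 (SE 0.17, limma adjusted p = 0.00666). Keap1 rose by 0.67 (SE 0.12, adjusted p = 0.0124), from 8.75, 8.90 and 8.95 to 9.39, 9.53 and 9.69. Its other probe set read -0.08, and the call was lost without any 1 wild-type array (adjusted p = 0.0651, 0.0536 and 0.0503 without replicates 1, 2 and 3) and with the 3′ to 5′ covariate (0.0544). The repressor gene Bach1 was not called (-0.27, SE 0.21, adjusted p = 0.388), and its arrays overlapped.

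**Figure D4:**
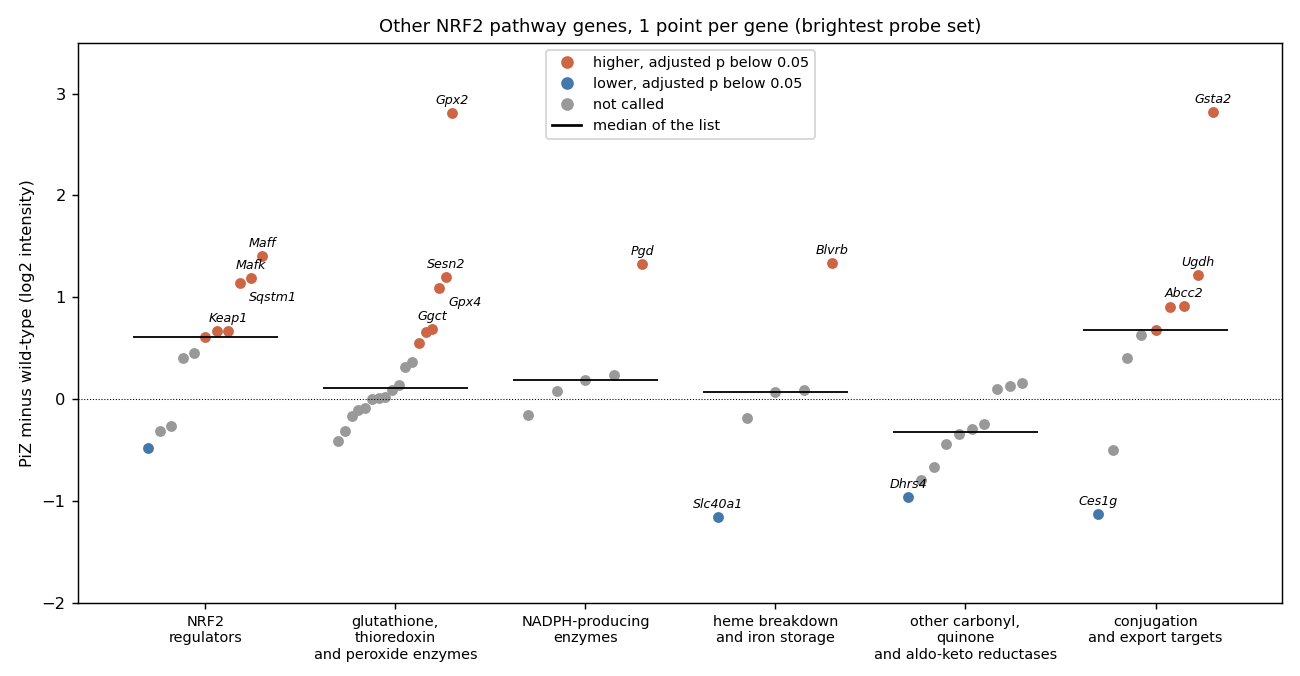
Difference between PiZ and wild-type liver (y axis, log2 intensity) of the other genes of the pathway in 6 lists (x axis), with 1 point per gene, coloured by call, and the median of each list as a line. Regulators and conjugation and export genes have medians of 0.61 and 0.67. The other carbonyl, quinone and aldo-keto reductases have a median of -0.32 with 0 of 10 higher, where 9.99% of all genes were.

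Of 18 measured genes of glutathione, thioredoxin and peroxide handling, 6 were higher and 0 lower, where 9.99% and 11.2% of all genes were. The median of the 18 was 0.11, and at an unadjusted p below 0.05 the counts were 7 and 2. For that threshold the share over all genes was not counted. Of the 6, Slc7a11 (0.65, SE 0.11) lay below the lower quartile on every array, so its change is uncertain in size. Gpx2, a glutathione peroxidase best known from the gut epithelium, rose by 2.80 (SE 0.27, limma adjusted p = 0.00167), from 6.18, 5.87 and 5.92 to 9.46, 8.40 and 8.52. Sesn2, a stress-induced regulator of mTORC1 and of peroxiredoxin repair, rose by 1.20 (SE 0.19). Gpx4, the peroxidase of membrane lipid peroxides, rose by 1.09 (SE 0.11) in a probe set whose suffix _x_at marks probes shared with other transcripts, and its other probe set read 0.65. Ggct, an enzyme of glutathione breakdown, rose by 0.69 (SE 0.11) in one probe set and read 0.16 in the other. The measured peroxiredoxins (Prdx2 and Prdx3), superoxide dismutases, thioredoxins and catalase were not called in their brightest probe sets. Among their dimmer probe sets, 1 of Prdx2 (-0.68) and 1 of Cat (-0.45) were called lower and 1 of Txn2 (0.66) higher. Prdx1, Prdx5, Prdx6 and Ggt1, also on this list, were not measured.

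In a list of enzymes of NADPH supply and the pentose phosphate pathway, 1 of 5 measured was higher and 0 were lower by limma. The counts were the same at an unadjusted p below 0.05. Of all genes 9.99% were called higher and 11.2% lower, so in so small a list these called counts are near those shares. Pgd, 6-phosphogluconate dehydrogenase of the pentose phosphate pathway, rose in all 4 of its probe sets by 0.78 to 1.33, and its brightest read 10.28, 10.69 and 10.49 in wild-type and 11.43, 11.95 and 12.06 in PiZ. Every PiZ array was above every wild-type array. Taldo1 (0.19), Tkt (0.23), Me1 (-0.16) and Idh1 (0.07) were not called. G6pdx, also on this list, was not measured.

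In heme breakdown and iron storage, 1 of 5 was higher and 1 lower, where 9.99% and 11.2% of all genes were. In so small a list these counts are near those shares. Blvrb, biliverdin reductase B, which also reduces flavins, rose by 1.33 (SE 0.14, limma adjusted p = 0.00197). Slc40a1, ferroportin, the iron exporter of macrophages and hepatocytes, fell by 1.16 (SE 0.16, adjusted p = 0.00508), from 11.95, 11.71 and 11.90 to 10.84, 10.86 and 10.38. The arrays of each gene did not overlap between groups. Hmox2, the constitutive heme oxygenase, differed by 0.09 and Blvra by -0.18, and neither was called.

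Of 10 other carbonyl, quinone and aldo-keto reductases measured, 0 were higher and 1 was lower by limma (0 and 5 at an unadjusted p below 0.05), with a median of -0.32. So small a list holds about the called counts, 0 and 1, at the shares over all genes, 9.99% and 11.2%. The share over all genes at the unadjusted threshold was not counted. The difference of this list from Cbr1, Cbr3 and Nqo1 was not tested. Dhrs4, a peroxisomal carbonyl reductase, fell by 0.96 (SE 0.19, limma adjusted p = 0.0167), from 10.92, 10.82 and 10.92 to 10.36, 9.58 and 9.84. That call was lost without any 1 wild-type array (adjusted p = 0.0737, 0.0593 and 0.0734 without replicates 1, 2 and 3) or without PiZ replicate 3 (0.0668). The difference was -0.49 with the 3′ to 5′ covariate and -0.53 in PiZ replicate 1 alone, and was called in both. Cbr4 (-0.67, adjusted p = 0.0625), Dcxr (-0.80), Nqo2 (-0.34) and Cbr2 (0.10, near the lower end of the range) were not called.

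Of 9 measured conjugation and export genes, 5 were higher and 1 was lower, where 9.99% and 11.2% of all genes were. Their median was 0.67. Gsta2, a glutathione transferase, rose by 2.82 (SE 0.16, limma adjusted p = 0.000188), from 9.03, 8.79 and 9.19 to 11.66, 12.07 and 11.74. Ugdh, which makes the UDP-glucuronic acid used in glucuronidation, rose by 1.22 (SE 0.11), and Abcc2 (MRP2), the canalicular exporter of conjugates, by 0.92 (SE 0.17, adjusted p = 0.0132). The Abcc2 call was lost without wild-type replicate 1 (adjusted p = 0.0651), wild-type replicate 3 (0.058) or PiZ replicate 3 (0.0552). The difference was 0.52 with the 3′ to 5′ covariate and 0.56 in PiZ replicate 1 alone, and was called in both. Ces1g, a carboxylesterase, fell by 1.13 (SE 0.16, adjusted p = 0.00529).

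Across the 6 arrays, the genes whose values followed Cbr3 most closely were Ddit4, Ehd4, Kcne4, Ica1 and Atf3, the 5 with the highest Pearson correlation among all genes. The correlations were 0.999 for Ddit4 and 0.998 for each of the others. They rest on 6 arrays in 2 groups and thus mostly follow the group difference, so they are a description with no test. Ddit4, a stress-induced inhibitor of mTORC1, read 7.35, 7.21 and 7.11 in wild-type and 12.04, 11.64 and 11.01 in PiZ replicates 1, 2 and 3. Atf3, a stress-induced transcription factor, read 5.26, 5.40 and 5.33 in wild-type and 11.09, 10.92 and 9.83 in PiZ. All 5 genes were highest in PiZ replicate 1 and lowest in PiZ replicate 3 among the PiZ arrays, as was Cbr3. The choice by correlation with Cbr3 favours this order.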

How the data were processed

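RNA from the livers of 3 wild-type and 3 PiZ mice was read on 1 array each. The authors deposited log2 intensities for each probe set, made with affy and RMA per the submitters' processing notes, with no version, chip definition or filter stated there. Quantile normalization removes any change shared by most genes. The log2 scale was inferred from the value range, and all 6 columns were matched to samples. The 64 control probe sets were left out of the fit. Genes were named from a table of the platform's annotation, and a gene's brightest probe set is the one with the highest mean over all arrays.

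The comparison used lmFit and eBayes of limma 3.58.1 under R 4.3.3 (no covariate, two-sided, Benjamini-Hochberg over 22626 probe sets, threshold 0.05). The code was checked on simulated data with independent noise. Those data did not copy the differences between the PiZ arrays, so the check is no support for the calls. The labels call the samples biological replicates, and precision is limited by the number of arrays. The genes and lists were chosen with earlier results of these data known; the lists hold 58 measured genes of 70. All 10 genes are reported with every probe set, and of each list up to 4 called genes by size (otherwise the 2 with the smallest p), with Keap1, Bach1 and Sqstm1 in any case. Lists are described by counts and medians without a set test. Alternatives changed the probe set choice, the filter on dim probe sets, the scaling, the variance model, array weights, a replicate block, a 3′ to 5′ covariate, the samples and the threshold. Motifs were searched in RefSeq promoters of GRCm38.p6, with TGANNNNGC added after the sequences were seen. Python 3.11.15 with pandas 2.3.3 made the tables and matplotlib 3.10.9 the figures.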

Additional observations from a re-analysis of the deposited data

How the results depend on the processing

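The 4 genes that rose kept their direction and their call in their brightest probe sets under all 17 alternative fits, with differences of 4.84 to 5.78 for Cbr3, 2.48 to 2.63 for Srxn1, 1.81 to 1.95 for Nqo1 and 0.89 to 1.42 for Cbr1. With 1 probe set per gene 4 of the 10 were higher, and at an adjusted p below 0.01 the probe sets were 6 higher and 0 lower. The lower count (Gclm in the fit reported) was 2 with array weights, and 0 with the 3′ to 5′ covariate or in PiZ replicate 1 alone. Leaving out 1 array gave 6 to 8 higher and 0 to 2 lower. Signs turned only for genes that were not called: Gclc read -0.053 with array weights and -0.11 to 0.17 without 1 array; Txnrd1 1421529_a_at read -0.018 with array weights and -0.020 to 0.065 without 1 array; Txnrd1 1424486_a_at read -0.090 with the covariate and -0.073 in PiZ replicate 1 alone; Hmox1 read -0.025 after cyclic loess, -0.064 with array weights and -0.14 to 0.13 without 1 array. Hmox1 and Osgin1 also moved with the covariate and in PiZ replicate 1 alone, by the values given with each gene.

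Over all 22626 probe sets, counts called higher and lower were 2020 and 2311 in the fit reported and 6038 and 4948 with array weights. They were 1308 and 1504 with the covariate, and 550 and 583 at the stricter threshold. With 1 probe set per gene they were 1396 and 1525, out of 12393 genes. Without 1 array the counts over all probe sets were 598 to 5734 and 641 to 4813, highest without PiZ replicate 1. Of the 58 measured genes of the pathway lists, 19 were higher and 4 lower, where 9.99% and 11.2% of all genes were. The counts were 11 and 2 at the stricter threshold, 12 lower with array weights, and 10 to 25 and 2 to 12 without 1 array. Counts over all probe sets moved the same way under each of these settings, so the shifts are not particular to the lists. The causes of these shifts were not tested.

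The labels tie same-numbered arrays only by a number. Their deviations from the group means correlated at 0.30, 0.30 and -0.04 for replicates 1, 2 and 3. Of the 6 arrays, 4 correlated best with their own number. Whether same-numbered arrays share a batch was not tested. The replicate block gave 7 higher and 1 lower among these probe sets, and 2281 and 2908 over all. Low intensity limits the dim probe sets of Srxn1 and Txnrd1 and the wild-type level of Cbr3.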
